A study of Mus musculus with 6 samples.

Results

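The 10 genes described here encode surface proteins by which preadipocytes and fibroblasts are recognised and sorted: Pdgfra, Pdgfrb, Ly6a, Ly6c1, Cd34, Thy1, Dpp4, Pi16, Icam1 and Dlk1. They were taken by symbol from a table of read counts, and all 10 were found among its 20295 genes. RNA had been sequenced from 6 cultures, 2 from each of 3 fat depots of 4 to 5 week old male NMRI mice: brown fat (BAT, a pool of interscapular, cervical and axillary fat), epididymal white fat (eWAT) and inguinal white fat (iWAT). In every culture the stromal-vascular cells, those left when collagenase has freed the mature adipocytes, were grown in 10% newborn calf serum with 30 nM insulin and 1 µM rosiglitazone, an activator of the nuclear receptor Pparg. Harvest was 8 days after plating per the labels, while the sample tags say day 7, and a culture was used only if over 50% of its cells had differentiated. The labels give no count of the undifferentiated cells, and separate animals are not stated for the replicates, so p-values measure only the spread between these libraries, which may be technical.

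Adipocytes form from fibroblast-like precursors that line the vessels and connective sheets of fat, and these precursors lose most of their surface markers as they fill with lipid. In subcutaneous fat, cells carrying DPP4 and PI16 lie in the outer interstitium and give rise to ICAM1-bearing preadipocytes that are closer to the adipocyte. PDGFRA, the Ly6a product SCA-1, CD34 and THY1 are carried more broadly by fibroblasts and fat progenitors, and DLK1, also called preadipocyte factor 1, restrains adipogenesis. In whole cultures such as these, fewer cells of a type and less RNA per cell cannot be told apart.

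Total counts per library ran from 2889038 to 4807449, with the BAT replicate 2 library the shallowest, and the upper limit set by a count of 0, taken as 3 counts, was 0.634 to 1.15 CPM depending on the library. CPM are read counts per 1000000, scaled with trimmed-mean factors, and values after ± are SDs over the 2 libraries of a depot. Mature adipocyte genes were abundant in every culture: Adipoq, which encodes adiponectin, lay between 1400 and 2400 CPM. The fibroblast cytoskeletal gene Vim lay between 626 and 1590 CPM and was not called in any comparison. Of the 10 members, 9 passed the low-count filter, as did 11732 of all genes. Dlk1 did not pass. Ly6c1 and Pi16 passed through the white fat libraries alone and were therefore bound to be lower in BAT to some degree. The eWAT libraries alone did not carry Ly6c1 past the filter, nor those of iWAT alone Pi16. The side of each between iWAT and eWAT was thus also set in part beforehand. The BAT libraries likewise did not carry Il7r, Clec3b, Anpep, Fcgr1, Cd68, Wt1 and Actn3, named below, past the filter. Those of eWAT did not carry S100b and Krt19, also named below, past it.

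By their means, all members but Thy1 and Dlk1 were lowest in the brown fat cultures, and the order of the white depots differed from gene to gene. The means of Pdgfra and Ly6a stood highest in iWAT, those of Pdgfrb, Icam1 and Dpp4 in eWAT, and that of Thy1 was lowest in eWAT. Against eWAT, 4 of the 9 tested members were called lower in BAT (Icam1, Pdgfra, Ly6a and Pdgfrb) and 1 higher (Thy1) at an adjusted p below 0.05 in the edgeR quasi-likelihood test, where 6.46% of all tested genes were called, 3.75% lower and 2.71% higher. Against iWAT, 4 of 9 were called lower in BAT (Icam1, Pdgfra, Ly6a and Ly6c1) and 0 higher, where 1.04% of tested genes were called, 0.895% lower. Among these 4, Ly6c1 had passed the filter through white fat alone. Between iWAT and eWAT the same test called 0 of 9 members and 0% of all genes. At an unadjusted p below 0.05 there were 4 members (Thy1, Ly6c1, Pdgfra and Ly6a) and 9.34% of genes. Of these 4, Ly6c1 had passed the filter through iWAT alone. The unadjusted counts were 8 of 9 members against 25.9% of genes for BAT minus eWAT, and 7 of 9 against 16.6% for BAT minus iWAT. Both of these counts include Ly6c1 and Pi16, which were bound to be lower in BAT to some degree.

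Other tools moved these counts. DESeq2 called 7 members for BAT minus eWAT (the 5 above with Dpp4 and Pi16) where 11.7% of genes were called, the same 4 for BAT minus iWAT (4.35%), and Thy1 and Ly6c1, both higher in iWAT, for iWAT minus eWAT (2.57%). Of the members that DESeq2 called, Ly6c1 had passed the filter through iWAT alone and Pi16 through eWAT alone. Limma voom called 4, 3 and 0 members, where 4.74%, 0.588% and 0.00852% of genes were called.

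**Figure D1:**
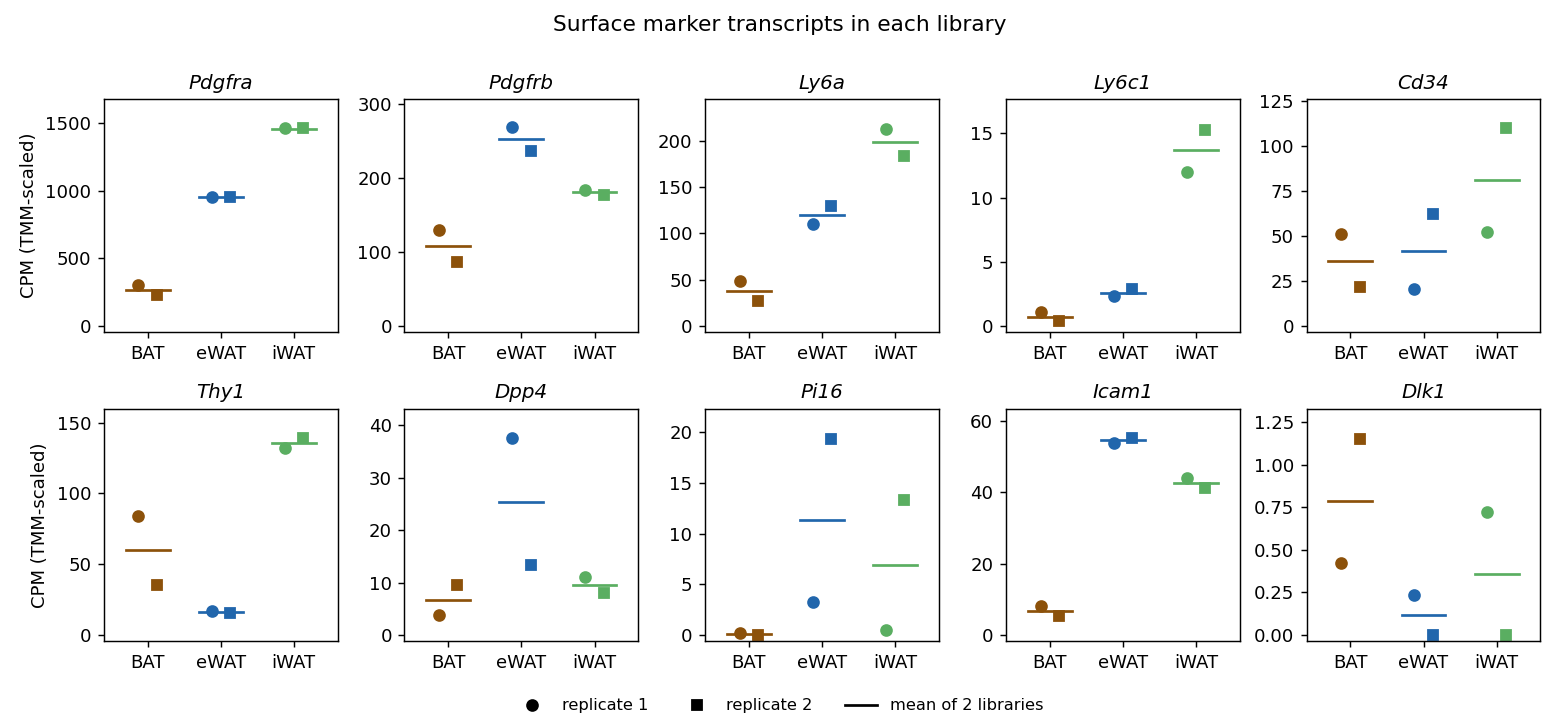
Level of each of the 10 markers in the 6 libraries, in CPM on linear axes that differ between panels; circles and squares are replicates 1 and 2 of a depot and lines are their means. Pdgfra, Ly6a and Icam1 were lowest in both BAT libraries, Thy1 was lowest in both eWAT libraries, and the 2 libraries of a white depot lay far apart for Pi16 and Cd34.

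The median log2 difference of the 9 tested members was -1.66 for BAT minus eWAT, -2.38 in BAT minus iWAT and 0.61 in iWAT minus eWAT, while that of all tested genes was -0.03, -0.02 and 0.01. These medians rest on members chosen with earlier results known, and the comparisons share libraries, so they are descriptions. They include Ly6c1 and Pi16, which passed the filter through white fat alone, and the median of -1.66 is the value of Ly6c1. The libraries of BAT and eWAT did not overlap for 8 of 9 members, against 55.2% of all tested genes. For BAT and iWAT they did not overlap for 8 of 9, against 48% of tested genes, and for iWAT and eWAT for 7 of 9, against 38%. Ly6c1 and Pi16 are counted in both BAT figures. Ly6c1, which the eWAT libraries did not carry past the filter, is also counted in that of iWAT and eWAT.

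**Figure D2:**
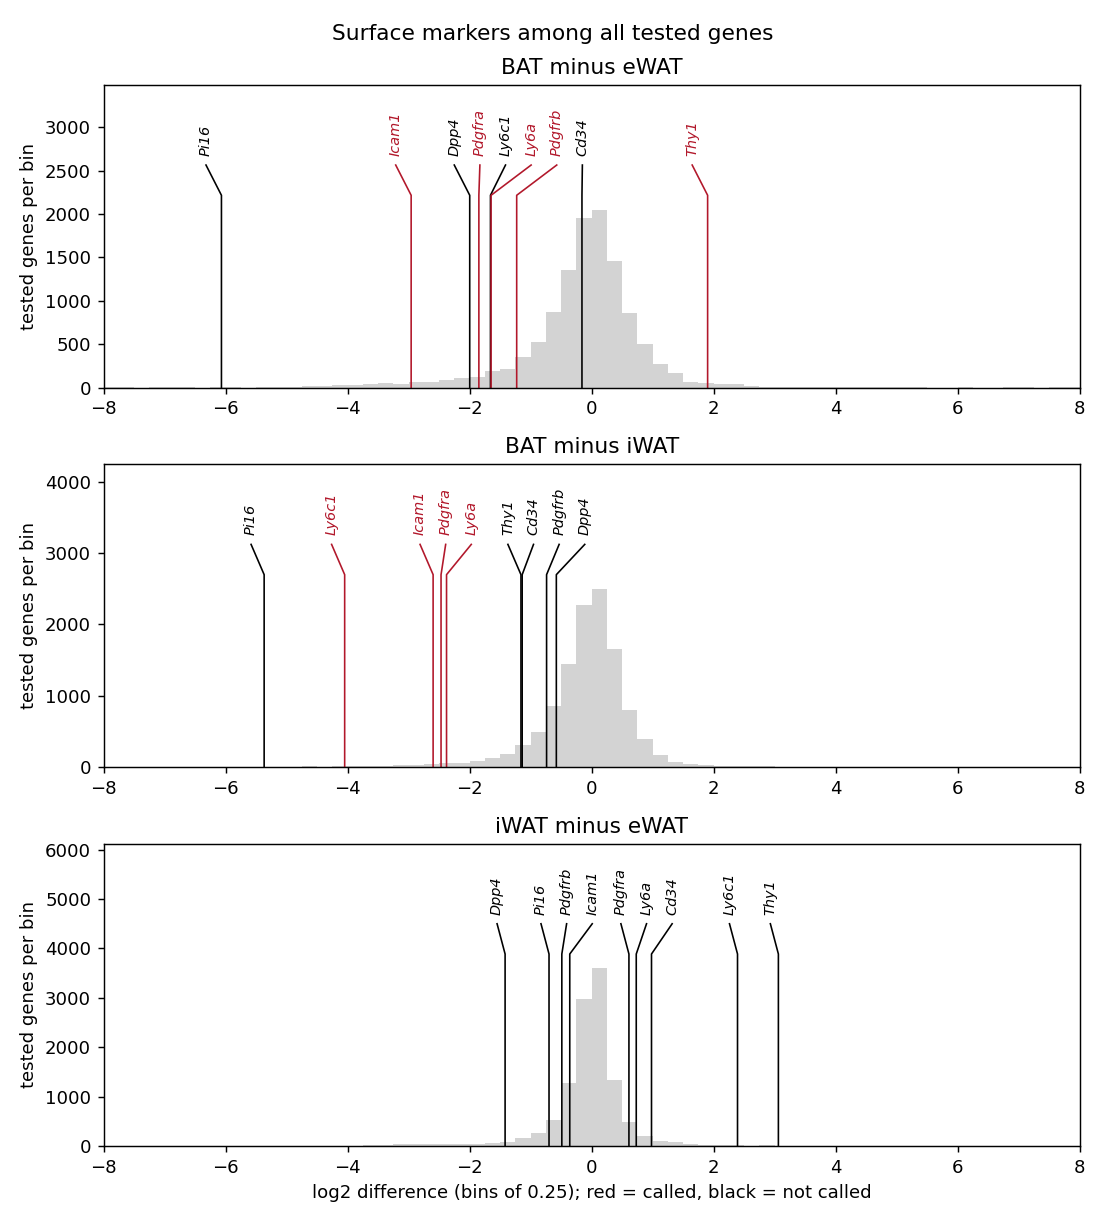
Log2 difference of the 9 tested markers (vertical lines; red, adjusted p below 0.05) over the distribution of all 11732 tested genes in each comparison, as genes per bin of 0.25. In BAT minus iWAT all 9 lines lie left of 0, in BAT minus eWAT only Thy1 lies right of 0, and in iWAT minus eWAT 5 lines lie right and 4 left. Ly6c1 and Pi16 passed the filter through white fat alone, so their side in the BAT panels was largely set beforehand. Ly6c1 passed through iWAT alone and Pi16 through eWAT alone, so their side in iWAT minus eWAT was also set in part.

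The platelet-derived growth factor receptors had different orders of the depots by their means. Pdgfra, the receptor tyrosine kinase that defines fat fibroblasts and progenitors, had 301 and 226 CPM in BAT, 956 and 953 in eWAT, with 1460 and 1460 in iWAT. The libraries of the 3 depots were fully separated and those of each white depot nearly coincided, with means of 263.7 ± 53.3, 954.4 ± 2.3 and 1459 ± 4.73 CPM. The log2 difference was -1.85 ± 0.22 (SE, as for all log2 differences) for BAT minus eWAT (adjusted p = 0.0175) and -2.47 ± 0.22 for BAT minus iWAT (adjusted p = 0.0162). For iWAT minus eWAT it was 0.61 ± 0.21 (adjusted p = 0.402). With 1 library left out at a time, BAT minus eWAT ran from -2.07 to -1.67 and BAT minus iWAT from -2.69 to -2.27. Neither call held without BAT replicate 2, nor without either library of the white depot compared.

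Pdgfrb, the related receptor carried by pericytes as well as fibroblasts, had 129 and 85.7 CPM in BAT, 269 and 237 in eWAT, with 184 and 177 in iWAT. Here eWAT stood highest, and again no 2 depots overlapped. Only the difference between BAT and eWAT was called (-1.23 ± 0.23, adjusted p = 0.0373), and it was not called with any library other than BAT replicate 1 left out (adjusted p from 0.0759 to 0.169). Its log2 difference was -0.74 ± 0.23 for BAT minus iWAT (adjusted p = 0.197) and -0.49 ± 0.23 for iWAT minus eWAT (adjusted p = 0.625).

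The ratio of Pdgfra to Pdgfrb within a library does not depend on how libraries are scaled. Per base of counted sequence (6523 bases for Pdgfra and 5410 for Pdgfrb), it was 1.93 and 2.19 in BAT, 2.95 and 3.33 in eWAT, with 6.58 and 6.82 in iWAT. The 3 depots did not overlap, and the iWAT ratio of 6.7 ± 0.17 was the highest. This ratio and those below were chosen after the values had been seen and carry no test.

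The ligands of these receptors showed no called difference: 0 of 4 tested PDGF genes passed in any comparison. Their median log2 difference was 0.00 for BAT minus eWAT, -0.21 in BAT minus iWAT and 0.27 in iWAT minus eWAT. Pdgfd was the most abundant in CPM, at 18 and 20.3 in BAT, 30.3 and 10.8 in eWAT, with 40.9 and 14.8 in iWAT. The means of Pdgfa lay between 4.54 and 6.297 CPM, those of Pdgfb between 3.997 and 4.313, and those of Pdgfc between 4.106 and 7.063.

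Ly6a, Ly6c1 and Thy1 encode small proteins held to the membrane by a lipid (GPI) anchor. Ly6a, whose product SCA-1 is a standard mark of mouse mesenchymal progenitors, had 48.8 and 26.4 CPM in BAT, 110 and 129 in eWAT, with 213 and 183 in iWAT. No 2 depots overlapped. It was called lower in BAT than in eWAT (-1.65 ± 0.30, adjusted p = 0.0367) and than in iWAT (-2.38 ± 0.31, adjusted p = 0.0314), and iWAT minus eWAT was 0.73 ± 0.29 (adjusted p = 0.499). With 1 library left out at a time, the call against eWAT held only where that library was BAT replicate 1 (adjusted p from 0.07 to 0.121 for the others). That against iWAT was lost without BAT replicate 2 (0.113), eWAT replicate 2 (0.0515), iWAT replicate 1 (0.148) or iWAT replicate 2 (0.154).

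Ly6a and Pdgfra kept nearly the same proportion in all depots. Their ratio per base was 1.09 and 0.788 in BAT, 0.777 and 0.913 in eWAT, with 0.984 and 0.85 in iWAT, and all depots overlapped. Across the 6 libraries their log2 CPM correlated at 0.99, the highest value among the 36 pairs of tested members. Those 6 points share depth and depot, so the figure describes these libraries only.

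Ly6c1 was a low transcript, and its counts were highest in iWAT. Its counts were 5 and 1 in BAT, 10 and 10 in eWAT, with 50 and 61 in iWAT, or 1.06 and 0.382, 2.33 and 2.84, and 12 and 15.3 CPM. BAT minus iWAT was called at -4.05 ± 0.51 (adjusted p = 0.0291). From 111 against 6 counts, the iWAT level was 16.7 times that of BAT, with a 95% interval of 7.44 to 46.5 that covers counting error only. BAT minus eWAT (-1.66 ± 0.57, adjusted p = 0.133) and iWAT minus eWAT (2.39 ± 0.43, adjusted p = 0.136) were not called by edgeR. DESeq2 called the latter (adjusted p = 0.0213). Ly6c1 had passed the filter through iWAT alone, so it was bound to be higher there than in eWAT to some degree. The BAT to iWAT call was lost with any library but eWAT replicate 1 left out (adjusted p from 0.0506 to 0.199) and with limma voom (0.0658).

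Members of the Ly6 family resemble each other, and how reads matching more than 1 gene were treated is not stated here. Of the 50-base windows of the Ly6c1 transcript, 23.8% also occur in a transcript of another gene, most of them in Ly6c2. For Ly6a the share was 10%. Ly6c2 itself had 1 count over all 6 libraries together, so its signal and that of Ly6c1 are uncertain where they share sequence. The other 8 members shared no such window with another gene, and no member overlapped another gene of the table on the genome.

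Ly6e, a widely expressed family member that shared no window, had 72.9 and 47 CPM in BAT, 171 and 216 in eWAT, with 161 and 155 in iWAT. It was called lower in BAT than in eWAT (-1.68 ± 0.25, adjusted p = 0.027), while BAT minus iWAT was -1.39 ± 0.25 (adjusted p = 0.0779). It was the only one of 5 tested genes among 15 other family members that was called in any comparison. Ly6g6c, Ly6g6d, Ly6g6e and Lypd6 had no count in any library.

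Thy1, which encodes the fibroblast and T cell antigen CD90, was the only tested member with a positive log2 difference for BAT minus eWAT. It had 83.9 and 35.6 CPM in BAT, 17 and 15.4 in eWAT, with 132 and 139 in iWAT. The eWAT libraries lay below all others, and those of iWAT above all others, with means of 59.73 ± 34.2, 16.18 ± 1.16 and 135.4 ± 5.09 CPM in BAT, eWAT and iWAT. BAT minus eWAT was 1.90 ± 0.40 (adjusted p = 0.0464). With BAT replicate 1 left out it was 1.14, and leaving out BAT replicate 2 gave 2.37, and it was still called in both cases. The call was lost when any white fat library was left out (adjusted p from 0.0857 to 0.188), with BAT and eWAT alone (0.089), with library totals in place of scaling factors (0.0601) and with limma voom (0.0714). BAT minus iWAT was -1.16 ± 0.37 (adjusted p = 0.206).

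For iWAT minus eWAT, Thy1 had a log2 difference of 3.06 ± 0.41 (adjusted p = 0.0906), at the 99.6th percentile of all tested genes. It was not called in the fit of all 6 libraries, but it was called by DESeq2 (adjusted p = 5.79e-09), without either BAT library (0.0357 and 0.0361) and with the 2 white depots alone (0.0402). Its value ran only from 2.99 to 3.14 over the libraries left out. Measured against Pdgfra per base, Thy1 stood at 1.05 and 0.592 in BAT, 0.339 and 0.359 in iWAT, and 0.0669 and 0.0606 in eWAT. The 3 depots did not overlap in that ratio, and BAT was the highest.

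**Figure D3:**
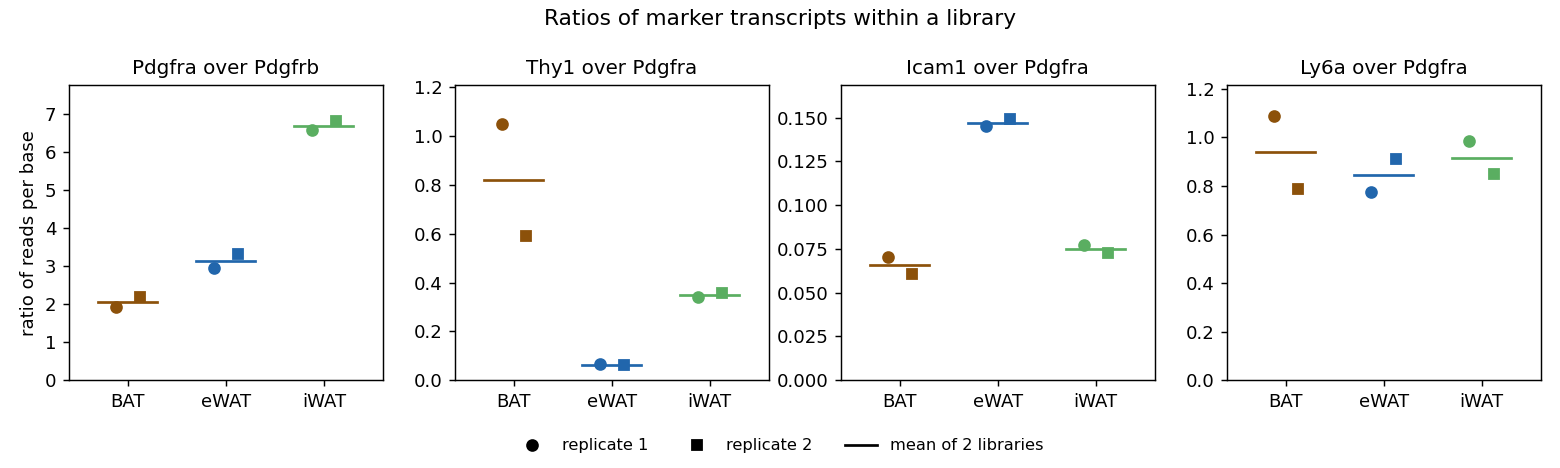
Ratios of marker transcripts in each library, as reads per counted base of the first gene over those of the second, on linear axes from 0; symbols as in the plot of levels. Pdgfra over Pdgfrb was highest in iWAT, Thy1 over Pdgfra was highest in BAT, Icam1 over Pdgfra was highest in eWAT, and Ly6a over Pdgfra overlapped between all depots.

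T cells also carry Thy1, and their defining gene Cd3e had 0 counts in every library. The summed level of 10 T cell markers ran from 2.11 to 2.68 CPM in BAT, 8.85 to 15.9 in eWAT and 3.37 to 4.27 in iWAT. The part of T cells in the Thy1 values was not tested. Only Il7r, an interleukin receptor gene, passed the low-count filter among them. It was called lower in BAT than in eWAT (-3.55 ± 0.77, adjusted p = 0.0489), but it had passed the filter through eWAT alone, where it had 27 and 48 counts against at most 6 in any other library.

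Cd34, a sialomucin of progenitors and of endothelium, varied widely between the libraries of each depot. It had 51.1 and 21.4 CPM in BAT, 20.5 and 62.3 in eWAT, with 52.2 and 110 in iWAT. BAT minus eWAT was -0.16 ± 0.65 (adjusted p = 0.91), and its sign depended on which library was left out. BAT minus iWAT was -1.14 ± 0.65 (adjusted p = 0.433), with no overlap of the libraries, and iWAT minus eWAT 0.98 ± 0.65 (adjusted p = 0.836). Endothelial cells share this gene: 10 endothelial markers summed to 237 and 123 CPM in BAT, 72 and 153 in eWAT, with 198 and 218 in iWAT. The library with the lower Cd34 was also the one with the lower endothelial sum in each depot, and the part of endothelial RNA in the Cd34 values was not tested. None of the 9 tested endothelial genes was called in any comparison.

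Dpp4 and Pi16 mark the interstitial progenitors, and both were low in every library. Dpp4, a dipeptidyl peptidase, had 3.8 and 9.56 CPM in BAT, 37.5 and 13.4 in eWAT, with 11.1 and 8.04 in iWAT. The eWAT libraries were above those of the other depots but lay far apart. BAT minus eWAT was -2.00 ± 0.63 (adjusted p = 0.113), and DESeq2 called it (0.0408). BAT minus iWAT was -0.58 ± 0.65 (adjusted p = 0.71) and iWAT minus eWAT -1.42 ± 0.60 (adjusted p = 0.552).

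Pi16, a peptidase inhibitor of the same cells, had 1 and 0 counts in BAT, 14 and 68 in eWAT, with 2 and 53 in iWAT. The white fat libraries thus ran from below the 3-count limit (0.481 CPM in iWAT replicate 1) to 19.3 CPM in eWAT replicate 2. The eWAT level was 77.2 times that of BAT from 82 counts against 1 (95% counting interval 13.5 to 3080), and the iWAT level was 49.7 times (8.55 to 2000). Neither difference was called (adjusted p = 0.139 and 0.292). DESeq2 called BAT minus eWAT (adjusted p = 0.0108).

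Dpp4 and Pi16 did not follow each other from library to library. In eWAT the library with more Dpp4 had less Pi16, and the same was so in iWAT. Pi16 over Dpp4 per base was 0.204 and 3.4 in eWAT, with 0.102 and 3.89 in iWAT, for replicates 1 and 2. The correlation of their log2 CPM over the 6 libraries was 0.29.

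Of 7 other tested genes of interstitial progenitors, 2 were lower and 0 higher in BAT than in eWAT, and 0 were called in the other comparisons. Their median log2 difference was -0.69, -0.66 and -0.02 for BAT minus eWAT, BAT minus iWAT and iWAT minus eWAT. Cd55, which encodes a complement regulator, averaged 7.245 CPM over the BAT libraries and 37.33 over those of eWAT (-2.36 ± 0.45, adjusted p = 0.0374). Clec3b, which encodes tetranectin, had 0 counts in BAT and 12 and 23 in eWAT, at least 11-fold lower in BAT against 3 counts over the depot (adjusted p = 0.0388).

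Icam1, the adhesion molecule of committed preadipocytes, showed the largest called log2 difference among the members against eWAT. It had 8.24 and 5.35 CPM in BAT, 54 and 55.2 in eWAT, with 44 and 41.2 in iWAT. The BAT libraries were far below the white ones, and eWAT lay just above iWAT, with means of 6.797 ± 2.04, 54.61 ± 0.8 and 42.62 ± 1.97 CPM in BAT, eWAT and iWAT. BAT minus eWAT was -2.96 ± 0.25 (adjusted p = 0.0103) and BAT minus iWAT -2.60 ± 0.25 (adjusted p = 0.0165), while iWAT minus eWAT was -0.36 ± 0.22 (adjusted p = 0.797). The call against eWAT was made under all 13 alternatives, with adjusted p up to 0.0476. The call against iWAT was lost without either library of BAT or iWAT (adjusted p from 0.0517 to 0.112).

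Relative to Pdgfra, Icam1 was highest in eWAT. The ratio per base was 0.145 and 0.149 there, 0.0703 and 0.0609 in BAT, and 0.0773 and 0.0727 in iWAT. The other depots lay close together, with all BAT values below those of iWAT.

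The sequence around the annotated start of Icam1 is shown with that of Pdgfra. Both were chosen because they were called lower in BAT against each white depot. Ly6a was so called as well, but no promoter window matched its symbol. Icam1 is a target of the inflammatory factor NF-kB. Each line gives the RefSeq window of 300 bases on GRCm38.p6, from 250 before to 50 after the annotated start, 5′ to 3′ on the gene's strand (plus for both), chr9:21015690-21015989 for Icam1 and chr5:75152001-75152300 for Pdgfra. Capitals mark matches to GGAAATTCC, a form of the NF-kB site, and to TATAAA, the letters of the TATA box.
Icam1: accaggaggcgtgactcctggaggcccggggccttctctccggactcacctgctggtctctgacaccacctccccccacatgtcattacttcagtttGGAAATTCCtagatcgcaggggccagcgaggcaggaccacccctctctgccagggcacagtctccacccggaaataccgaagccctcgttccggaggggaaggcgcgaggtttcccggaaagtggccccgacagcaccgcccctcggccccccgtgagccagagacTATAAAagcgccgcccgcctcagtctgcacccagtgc
Pdgfra: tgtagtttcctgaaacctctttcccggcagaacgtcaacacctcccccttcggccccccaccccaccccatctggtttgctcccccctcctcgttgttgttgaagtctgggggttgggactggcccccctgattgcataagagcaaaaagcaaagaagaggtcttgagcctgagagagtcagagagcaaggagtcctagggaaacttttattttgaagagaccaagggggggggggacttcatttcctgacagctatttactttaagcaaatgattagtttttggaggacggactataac
Both strands were searched (GGAATTTCC and TTTATA on the other), and the matches do not overlap. GGAAATTCC begins at position -153 from the annotated start of Icam1 and occurs in 0.317% of 32851 promoter windows. TATAAA begins at position 13, after that start and not before it, and occurs in 13.6%. The Pdgfra window held neither. A match is a description of letters and not evidence of a bound factor.

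Of 9 tested Icam1 receptors, relatives and NF-kB genes, 2 were called lower in BAT than in eWAT and 0 in the other comparisons, with medians of -0.87, -0.31 and -0.47 in the order used above. Nfkbia, the inhibitor of NF-kB and one of its own targets, had 26.2 and 24.9 CPM in BAT, 62.7 and 62 in eWAT, with 43.5 and 46.5 in iWAT (BAT minus eWAT -1.28 ± 0.17, adjusted p = 0.0213). Itgb2, a leukocyte integrin chain that binds ICAM1, averaged 5.167 CPM over the BAT libraries and 71.68 over those of eWAT (-3.75 ± 0.45, adjusted p = 0.0195). Itgb2 is a gene of leukocytes, and it stands beside the macrophage values below.

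Other genes of committed preadipocytes were called lower in BAT in part. Of 10 tested, 4 were called lower in BAT than in eWAT (Ggt5, Col15a1, Vcam1 and Apoe), 3 were called lower in BAT than in iWAT (Ggt5, Col15a1 and Vcam1), and 0 were higher in either. Ggt5, a glutamyl transferase gene, fell by 2.62 ± 0.31 on the log2 scale against eWAT (adjusted p = 0.0175) and by 3.26 ± 0.31 against iWAT (adjusted p = 0.0165). The list medians were -0.54, -0.74 and 0.13. Col15a1, a basement membrane collagen gene, had log2 differences of -1.03 ± 0.17 (adjusted p = 0.0313) and -1.56 ± 0.17 (adjusted p = 0.0225) in the same comparisons. The list also holds Lpl and Cd36, which mature adipocytes express.

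Dlk1 was at the limit of detection in these differentiated cultures. Its counts were 2 and 3 in BAT, 1 and 0 in eWAT, with 3 and 0 in iWAT, or at most 1.15 CPM, so no difference between depots was detectable at this depth. The iWAT level was 0.542 times that of BAT, with a counting interval from 0.0842 to 2.79. Among 12 tested genes of the Notch pathway, with which DLK1 is linked, 1 was called, the receptor gene Notch2, which was lower in BAT than in eWAT (-1.31 ± 0.24, adjusted p = 0.0368). The list medians were -0.06, -0.35 and 0.39.

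**Figure D4:**
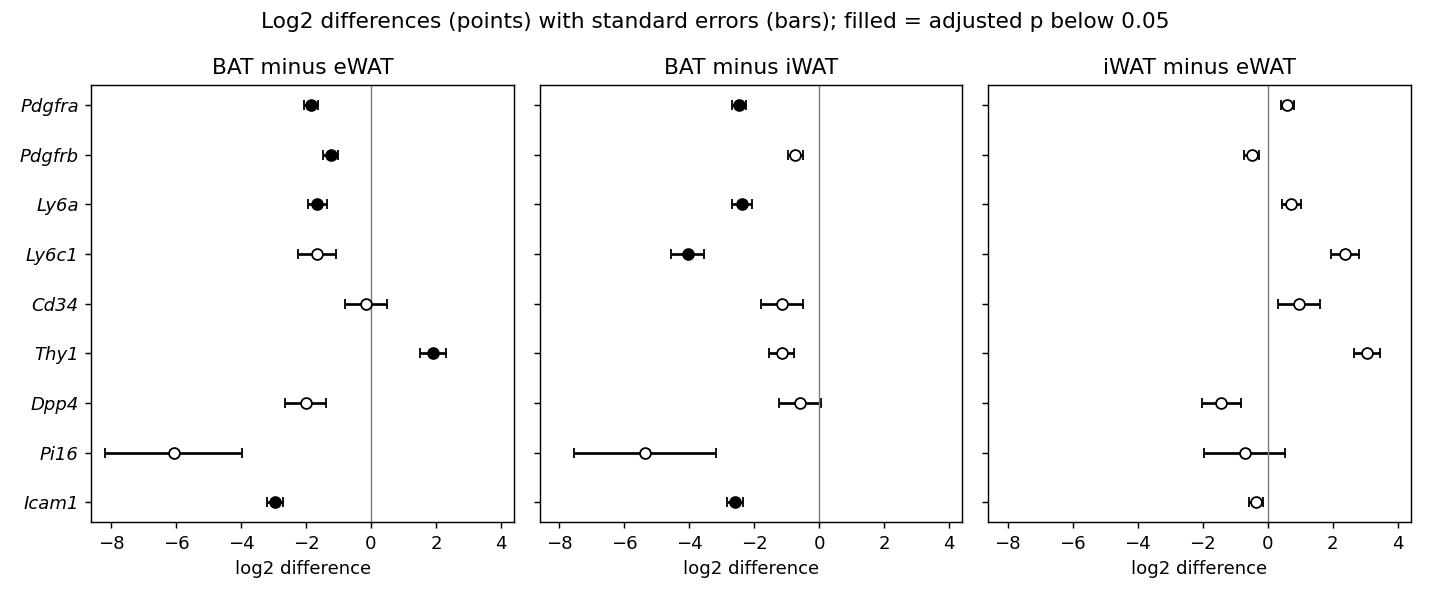
Log2 differences of the 9 tested markers between depots, with bars of 1 standard error; filled points have an adjusted p below 0.05 by edgeR over 11732 genes. Icam1, Pdgfra and Ly6a are filled in both BAT panels, Pdgfrb and Thy1 in the first only, Ly6c1 in the second only, and no point is filled for iWAT minus eWAT.

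Compared per length, Pdgfra and Ly6a were the most abundant members in every depot. In reads per 1000 bases and 1000000 reads (RPKM), computed from the CPM and the counted length, Pdgfra averaged 40.4 in BAT, 146 in eWAT and 224 in iWAT, and Ly6a 38.9, 124 and 205. In BAT each neighbour in the order Pdgfra, Ly6a, Thy1 (34.4), Pdgfrb (19.9) and Cd34 (14.7) overlapped the next. Icam1 (2.68) lay apart below them, and Dpp4 (1.27) overlapped Ly6c1 (0.88). In eWAT the order after Ly6a was Pdgfrb (46.8), Icam1 (21.5), Cd34 (16.7) and Thy1 (9.33), of which Icam1 and Cd34, and Cd34 and Thy1, overlapped, and below them Pi16 (5.03), Dpp4 (4.83) and Ly6c1 (3.16) overlapped from neighbour to neighbour. In iWAT it was Thy1 (78.1), Pdgfrb (33.4), Cd34 (32.9), Icam1 (16.8) and Ly6c1 (16.7), with overlap between Pdgfrb and Cd34 and between Icam1 and Ly6c1. Pi16, Dpp4 and Dlk1 closed the order in iWAT, where Pi16 and Dpp4 overlapped. Thy1 thus had rank 3 in BAT and iWAT and rank 6 in eWAT.

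The genes most like each member over the 6 libraries were found by Pearson correlation of log2 CPM among 10133 other genes. They were Adamtsl1 for Pdgfra (0.996), Cotl1 for Pdgfrb (0.995), Klf4 for Ly6a (0.998), Mex3a for Ly6c1 (0.996), Cd3eap for Cd34 (0.993), Pvr for Thy1 (0.991), Ap2a1 for Dpp4 (0.987), Cpeb1 for Pi16 (0.99) and Slc27a1 for Icam1 (0.999). With 6 points that share depot and depth such values are common: 324 genes reached 0.9 for Pdgfra, 486 for Icam1 and 41 for Cd34. Next in likeness stood Bmf and Nucb1 for Pdgfra, A4galt and Sgpp1 for Ly6a, Ampd2 and the matrix gene Dpt for Icam1, and the patterning gene Shox2 and the metallothionein gene Mt2 for Thy1. For the rest they were Stat2 and Lgals9 for Pdgfrb, Tgfbr2 and Slc39a14 for Ly6c1, Lpin3 and Rab33b for Cd34, Tmem104 and Srpr for Dpp4, and Tspan5 and Ugt1a6a for Pi16.

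Among the members themselves, Icam1 correlated at 0.94 with Pdgfra, 0.94 with Pdgfrb, 0.91 with Ly6a, 0.72 with Pi16 and 0.69 with Ly6c1. Ly6c1 correlated at 0.91 with Ly6a and 0.90 with Pdgfra, while Pdgfrb correlated at 0.79 with Pdgfra and 0.78 with Ly6a. The values of Thy1 were 0.58 with Ly6c1, 0.57 with Cd34, 0.26 with Ly6a, 0.18 with Pdgfra, -0.15 with Icam1, -0.27 with Pi16, -0.32 with Pdgfrb and -0.64 with Dpp4.

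Of 15 other tested fibroblast genes, most of them for matrix or intracellular proteins, 3 were called lower in BAT than in eWAT, 4 lower than in iWAT, and 0 higher, with medians of -1.03, -1.25 and 0.22. They included decorin (Dcn), which had 136 and 159 CPM in BAT, 1670 and 2110 in eWAT, with 1590 and 1890 in iWAT, the collagen gene Col3a1 (log2 differences -2.36 and -2.52) and lumican (Lum). Fap, a fibroblast surface protease, was called against iWAT alone (-2.57 ± 0.32, adjusted p = 0.0291). The summed level of the list was 9360 and 5880 CPM in BAT, 24000 and 23800 in eWAT, with 28500 and 26300 in iWAT.

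Vim and Col1a1 were not called. Vim was higher in replicate 1 than in replicate 2 in each depot (1590 and 626 CPM in BAT, 1220 and 908 in eWAT, 1550 and 935 in iWAT), and its log2 difference was 0.06 ± 0.48 for BAT minus eWAT (adjusted p = 0.953). Col1a1, the main collagen of fibroblasts, had 203 and 74.2 CPM in BAT, 1340 and 189 in eWAT, with 1900 and 208 in iWAT. The spread of Col1a1 within a white depot was thus far wider than that of Pdgfra, and none of its differences was called (adjusted p from 0.279 to 0.994).

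Of 11 other tested surface proteins used to sort fat progenitors, 3 were called lower in BAT than in eWAT, 0 were higher and 0 were called in the other comparisons, with medians of -1.38, -1.08 and -0.47. The adhesion gene Alcam averaged 21.82 CPM over the BAT libraries and 129.1 over those of eWAT (-2.55 ± 0.29, adjusted p = 0.0165). Podoplanin (Pdpn) averaged 22.55 and 88.67 CPM (-1.95 ± 0.26, adjusted p = 0.0213), and the aminopeptidase gene Anpep 1.716 and 16.79 CPM (-3.25 ± 0.51, adjusted p = 0.0286). None of 5 tested genes of F3-bearing stromal cells was called by edgeR, with medians of -0.23, -0.90 and 0.46. DESeq2 called 1 of these higher in BAT than in iWAT.

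Among 10 tested regulators of the preadipocyte state, BAT had 1 called above eWAT, 1 below eWAT and 1 above iWAT. Ebf2, a transcription factor of brown preadipocytes, was called higher in BAT than in eWAT (1.82 ± 0.26, adjusted p = 0.0236) and than in iWAT (1.71 ± 0.26, adjusted p = 0.0479). It had 212 and 314 CPM in BAT, 63.8 and 84.8 in eWAT, with 74.8 and 85.2 in iWAT. Cebpd, an early adipogenic factor, was called lower in BAT than in eWAT (-1.77 ± 0.31, adjusted p = 0.035), and the list medians were -0.54, -0.34 and 0.34.

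Markers of other cells in the stromal-vascular fraction moved with some of these comparisons. The 10 macrophage markers summed to 430 and 94.8 CPM in BAT, 4710 and 2090 in eWAT, with 641 and 187 in iWAT, with none of them at 0 in a depot. All 10 had negative log2 differences for BAT minus eWAT, 6 of them called, with a median of -3.67. They included the lysosomal gene Cd68 (-4.07 ± 0.58, adjusted p = 0.0247), the Fc receptor gene Fcgr1 (-3.51 ± 0.53, adjusted p = 0.0268) and the endotoxin co-receptor gene Cd14 (-2.82 ± 0.44, adjusted p = 0.0286). Cd68 and Fcgr1 had passed the filter without the BAT libraries. For BAT minus iWAT all 10 were negative as well, and 0 of 10 were called (median -0.68). Activated macrophages and endothelium also make ICAM1, and their part in the Icam1 values was not tested.

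Mural cells, which carry Pdgfrb, had a list sum of 2000 and 341 CPM in BAT, 1300 and 638 in eWAT, with 1060 and 428 in iWAT, higher in replicate 1 of each depot. None of its 10 tested genes was called in any comparison, and none was at 0 in a depot. Mesothelial genes summed to 14.2 and 16.1 CPM in BAT, 36.6 and 65.4 in eWAT, with 31.8 and 13.6 in iWAT. Wt1, also a gene of visceral fat progenitors, was called lower in BAT than in eWAT (-4.58 ± 0.63, adjusted p = 0.023). Of the 3 tested mesothelial genes, 1 had a positive log2 difference there. This was Krt19, with 7.4 and 5.35 CPM in BAT against 0.932 and 2.84 in eWAT. Of the 9 measured mesothelial genes 5 were at 0 in both iWAT libraries and 0 in both BAT or both eWAT libraries. Schwann cell genes summed to 33.2 and 58.9 CPM in BAT, 6.99 and 8.25 in eWAT, with 16.8 and 22.9 in iWAT. S100b alone gave 22.4 and 44 CPM of these sums in BAT, 0.466 and 1.71 in eWAT, with 5.53 and 9.8 in iWAT. The order of BAT above iWAT in the sums rested on that gene. S100b was called higher in BAT than in eWAT (4.94 ± 0.67, adjusted p = 0.0217). It had 106 and 115 counts in BAT against 2 and 6 in eWAT, which did not carry it past the filter. Skeletal muscle genes summed to at most 46.6 CPM, with Actn3 called lower in BAT than in eWAT (-2.24 ± 0.47, adjusted p = 0.0467). The part of any of these cells in the marker values was not tested.

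Mature adipocyte genes gave no call in 11 tested members by edgeR in any comparison, with medians of -0.09, 0.01 and -0.05. By DESeq2, BAT had 2 above and 1 below eWAT. Their summed level was 31100 and 40400 CPM in BAT, 22200 and 25800 in eWAT, with 25700 and 24100 in iWAT. A sum is set mostly by its most abundant genes: for BAT minus eWAT, 3 of the 11 had a positive and 8 a negative log2 difference. Cell cycle genes, 0 of 10 called in any comparison, summed to 664 and 267 CPM in BAT, 1050 and 461 in eWAT, with 648 and 366 in iWAT.

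**Figure D5:**
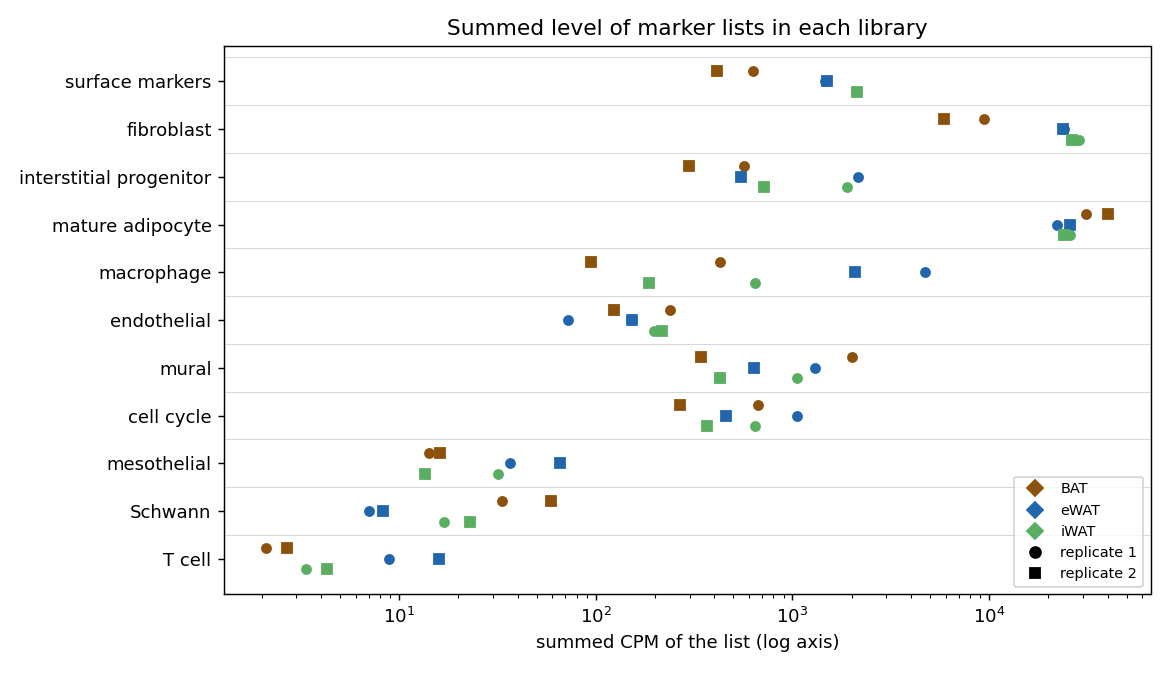
Summed CPM of each marker list in each library, on a log axis; colours are depots and shapes are replicates. The 10 surface markers summed to 628 and 411 CPM in BAT, 1470 and 1490 in eWAT, with 2110 and 2140 in iWAT, while macrophage, mural and cell cycle sums differed between replicates of each depot.

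The authors' deposited table, which names a likelihood ratio, called more members than the fit used here. For BAT minus eWAT the authors' deposited table called 1 member with a positive and 6 with a negative difference, against 15.6% of its genes. For BAT minus iWAT the authors' deposited table called 0 and 7 (8.24% of genes), and for iWAT minus eWAT 5 and 2 (8.52%). For Thy1 in iWAT minus eWAT the authors' deposited table gives a log2 difference of 3.05 with an adjusted p of 2.34e-51. For Cd34 in the same comparison the authors' deposited table gives 1.04 with an adjusted p of 9.58e-06, although the libraries of those depots overlapped.

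In mm9, the build of the deposited coordinates, the most separated members lie as follows. Pdgfra (NM_011058) is on chromosome 5 from 75548316 to 75594229, Icam1 (NM_010493) on chromosome 9 from 20820404 to 20833240, and Thy1 (NM_009382) on chromosome 9 from 43851467 to 43856662. Ly6a (NM_001271418) and Ly6c1 (NM_001252056) are neighbours in the Ly6 cluster of chromosome 15, from 74825307 to 74828461 and from 74874448 to 74879267, both on the minus strand.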

How the data were processed

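The deposited count table holds whole-number read counts per RefSeq gene and library with no normalization, per the file headers. STAR and the mouse build mm9 are named in the submitters' processing notes, while the counting program, strand setting and versions were not stated. A second deposited table gives the authors' log2 fold changes and log2 values, p-values and a likelihood ratio score per pair of depots, per the file headers, and was used only where named. Lengths are those deposited in the count table, and start coordinates were shifted to count from 1.

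Genes were filtered with filterByExpr by depot (11732 of 20295 kept), scaled by TMM and tested two-sided with the quasi-likelihood F test of edgeR, with depot as the only term and all 6 libraries in 1 fit. Adjusted p-values are Benjamini-Hochberg over all tested genes, called below 0.05. Standard errors are the absolute log2 difference over the square root of F. Replicate libraries differed beyond sampling noise (chi-square of 16 to 19.8 per degree of freedom). Likeness used log2(CPM + 1) of genes with a mean of at least 5 CPM. Alternatives were RLE factors, library totals, no filter, DESeq2, limma voom, only the depots compared, a replicate block and each library left out. Counting intervals are exact 95% binomial. The versions were R 4.3.3, edgeR 4.0.16, limma 3.58.1, DESeq2 1.42.0, Python 3.11.15 and matplotlib 3.10.9, and the edgeR script was tested on simulated data. Shared 50-base windows were counted in GENCODE M21 transcripts. Promoter windows came from RefSeq (GRCm38.p6), where 7 of the 10 members matched by symbol.

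The members, gene lists, tests and naming rule were chosen with earlier results of these data known. The rule named all members, up to 3 called genes per list and comparison by smallest adjusted p, the 3 genes most like each tested member, and Ly6c2, Ly6e, Vim, Col1a1, Adipoq and the PDGF ligands whatever their result. Apoe, Lum against iWAT, Lpl, Cd36, Cd3e, Krt19, the Ly6 family genes at 0 and the ratios were chosen after their values were seen.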

Additional observations from a re-analysis of the deposited data

How the results depend on the processing

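The direction of every called member difference was the same under all 13 alternatives. For BAT minus eWAT, where 5 markers were called, the fit of those depots alone called 2 (Icam1 and Pdgfra). With 1 library left out at a time, log2 differences ran from -3.34 to -2.73 for Icam1 and -2.07 to -1.67 for Pdgfra. They ran from -2.17 to -1.29 for Ly6a, -1.56 to -0.97 for Pdgfrb and 1.14 to 2.37 for Thy1. For BAT minus iWAT, where 4 were called, the same omissions gave -2.98 to -2.36 for Icam1 and -2.69 to -2.27 for Pdgfra. They gave -2.90 to -2.01 for Ly6a and -5.04 to -3.65 for Ly6c1. Each such fit left a depot with 1 library, and in both BAT comparisons most of them called fewer markers and fewer genes. Where BAT minus iWAT lost every marker call, almost no gene of any kind was called. For iWAT minus eWAT, where 0 were called, no filter and DESeq2 each called 2 (Thy1 and Ly6c1). The fit of those depots alone called 1 (Thy1), and omissions gave 2.99 to 3.14 for Thy1. Differences that were not called and changed sign were those of Cd34 for BAT minus eWAT and Pi16 for iWAT minus eWAT. Cd34 was 0.03 with limma voom and ran from -0.93 to 0.85 with a library left out (0.31 without BAT replicate 2). Pi16 ran from -4.45 to 1.07 (0.24 without iWAT replicate 1). Dpp4 for BAT minus iWAT ran from -1.32 to 0.00, the latter without BAT replicate 1, where no difference remained. The cause was not tested. Over all genes, the numbers called for BAT minus eWAT, BAT minus iWAT and iWAT minus eWAT were 758, 122 and 0, against 1370, 510 and 301 by DESeq2, 1937, 780 and 557 with no filter, 556, 69 and 1 by limma voom, and 156, 92 and 2 with only the depots compared. Ly6c1 for BAT minus eWAT and Pi16 for BAT minus iWAT did not pass the filter of that last fit.

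The depots share replicate numbers, but the labels do not say that a number marks a shared animal or day. Replicate 1 minus replicate 2 correlated across genes at 0.425 between BAT and eWAT, 0.457 between BAT and iWAT and 0.57 between eWAT and iWAT. With the replicate number as a block, 7, 7 and 2 markers were called, among 2780, 1225 and 563 genes, and Cd34 for BAT minus eWAT was 0.08. The block added Pi16 (adjusted p = 0.00744) and Dpp4 (0.0437) for BAT minus eWAT, Pi16 (0.0362), Pdgfrb (0.0331) and Thy1 (0.0389) for BAT minus iWAT, and Thy1 (0.00321) and Ly6c1 (0.017) for iWAT minus eWAT. At this depth Dlk1, Pi16 and Ly6c1 in BAT were at or near the limit of 3 counts.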
